A study of Mus musculus with 42 samples.

Results

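The astrocyte genes described here are 10 genes commonly used to recognise astrocytes in brain tissue: Gfap, Aqp4, Slc1a2, Slc1a3, Aldh1l1, Gja1, Gjb6, S100b, Aldoc and Slc4a4. The list was drawn up with earlier results of these data known, and it takes in every probe set that the array annotation pairs with 1 of them and no other gene. That gave 35 probe sets for 10 genes, of 34945 probe sets for 18193 genes, each read on 42 arrays. All 10 genes were measured, by between 1 probe set (Gjb6) and 6 probe sets (Slc1a3 and Gja1). No filter on low values was applied, so no member was dropped.

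Total RNA from frozen, dissected striatum and hippocampus of C57BL6 mice was labelled with biotin and hybridised to Affymetrix mouse arrays. The mice were labelled as PDE10A knockout (KO) or wild type (WT) and had been given a PDE10A inhibitor (PDE10i) or vehicle (Veh). PDE10A is a phosphodiesterase, an enzyme that degrades cyclic AMP and cyclic GMP, and is known to be abundant in the projection neurons of the striatum. Striatum was represented by 4 KO PDE10i, 5 KO Veh, 6 WT PDE10i and 5 WT Veh arrays, and hippocampus by 5 KO PDE10i, 5 KO Veh, 6 WT PDE10i and 6 WT Veh arrays. All groups share the C57BL6 strain. The compound, its dose, the time after dosing, the animals' age and the construction of the knockout allele are not given in the sources used for this work. The labels do not state whether each array is a different mouse, so the p-values below describe spread from array to array, part or all of which may be technical.

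Astrocytes are the glial cells that take up glutamate released at synapses, buffer potassium and water, couple to one another through gap junctions, and wrap blood vessels with their endfeet. Gfap, an intermediate filament protein, is known to be plentiful in hippocampal astrocytes and in astrocytes that react to injury, while many striatal astrocytes hold little of it. S100b is also known to be expressed by cells of the oligodendrocyte lineage, and Aldoc by some neurons, Purkinje cells of the cerebellum among them.

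Values are log2 signals, so a difference of 1 is a doubling. They compare 1 probe set across arrays and do not rank genes against each other, since probe sets differ in their response. A gene with several probe sets is represented by the brightest of them on average, unless stated otherwise. Differences were tested with limma's moderated test, two-sided, fitted to all 18193 genes and adjusted by the Benjamini-Hochberg method; a gene passed at an adjusted p under 0.05. In dissected tissue, fewer astrocytes and less RNA per astrocyte cannot be told apart.

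Several features of the arrays touch the results below. Pde10a itself had a log2 signal of 12.08 to 12.99 in KO PDE10i striatum and 12.13 to 12.71 in KO Veh striatum, against 12.02 to 12.7 in WT PDE10i and 12.06 to 12.65 in WT Veh striatum. In hippocampus it was 9.51 to 9.81 in KO PDE10i and 9.04 to 10.16 in KO Veh, against 8.54 to 9.88 in WT PDE10i and 8.94 to 9.04 in WT Veh. There KO was higher than WT by 0.42 under inhibitor and 0.47 in vehicle, without passing (limma adjusted p = 0.305 and 0.71). The Pde10a signal, read by the probe set that represents the gene, thus gave no check of the knockout label, and KO below means labelled KO. A score from genes on chromosome 17, the chromosome that carries Pde10a, put 8 arrays on the side opposite to their label, 4 in each region. The remaining arrays were on the side of their label. In the hippocampus, 3 arrays (WT Veh 1, WT Veh 3 and KO PDE10i 36) had log2 signals of 9.95, 8.49 and 8.35 for Gabra6, a gene of cerebellar granule neurons picked after its values were seen, whereas the highest striatal value was 5.67. Pcp2, a gene of Purkinje cells also picked after its values were seen, was above 6 on these 3 arrays and on 5 others, KO hippocampus Veh 30 (8.67), KO hippocampus PDE10i 34 (7.15), WT hippocampus Veh 5 (6.19), WT striatum Veh 4 (7.83) and WT striatum PDE10i 15 (7.26). Without these 8 arrays none of the inhibitor and genotype comparisons gave a member that passed, and among the passes between regions S100b in KO PDE10i was the only one lost (0.32, adjusted p = 0.0639). Results that change without these arrays are given both ways.

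Striatum differed from hippocampus in 9 of the 10 astrocyte genes when all groups were averaged, 2 higher and 7 lower in striatum, where 53.9% of all genes tested passed (27.2% higher and 26.7% lower). The largest differences were in Gfap, Aqp4 and Gjb6, which were lower in striatum, and Slc4a4 and S100b were the members that were higher. The median member difference was −0.26, beside 0.02 over all genes. For every member except Aldh1l1, the 4 striatal group means lay on the same side of all 4 hippocampal group means (see the plot of levels by group).

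**Figure D1:**
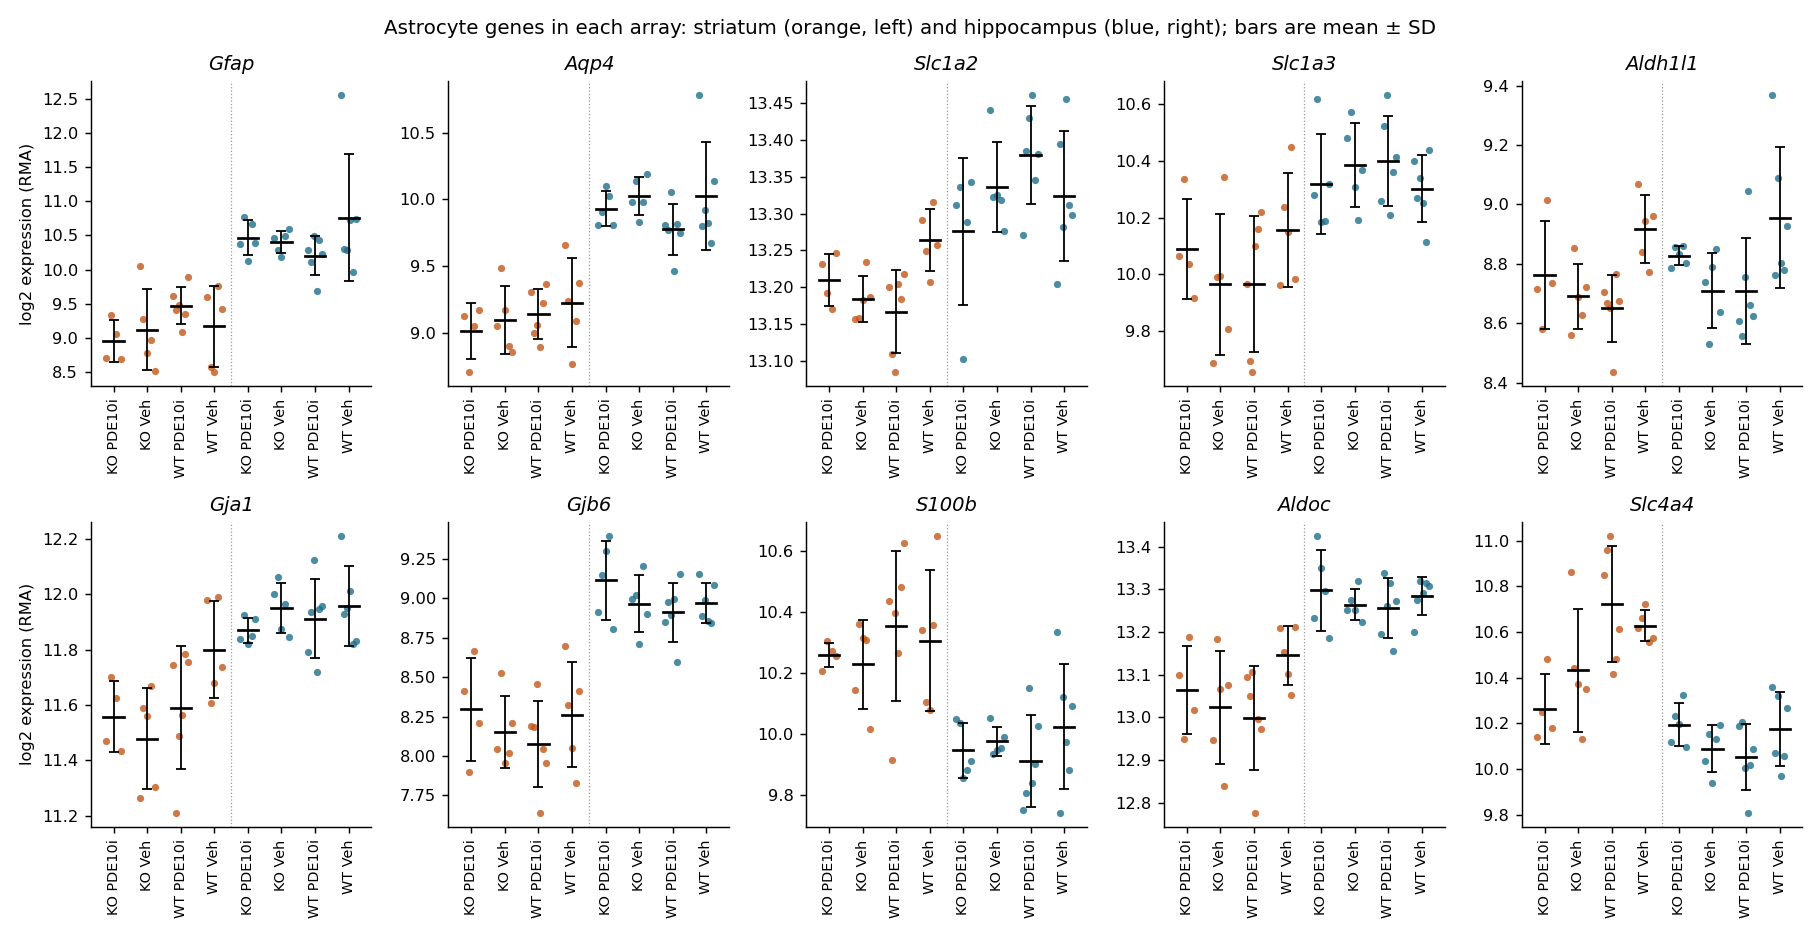
Log2 signal of the 10 astrocyte genes on each of the 42 arrays, with 1 panel per gene, striatal groups left of hippocampal groups, points for arrays and bars for the group mean and SD. Gfap, Aqp4 and Gjb6 sit lower in striatum, Slc4a4 and S100b sit higher, and Aldh1l1 shows no step between regions; the Gfap point at 12.55 is WT hippocampus Veh 1.

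Among structural and water-handling genes, Gfap (chr11:102887336-102897200, GRCm38.p6) differed most. Its log2 signal in striatum was 8.72, 9.34, 9.06 and 8.69 on the KO PDE10i arrays, 10.05, 9.28, 8.78, 8.97 and 8.52 on the KO Veh arrays, 9.09, 9.45 and 9.90 (lowest, median, highest) over the WT PDE10i arrays, and 9.60, 8.57, 8.50, 9.77 and 9.43 on the WT Veh arrays. In hippocampus it was 10.37, 10.78, 10.13, 10.66 and 10.39 on the KO PDE10i arrays, 10.47, 10.29, 10.19, 10.49 and 10.59 on the KO Veh arrays, 9.69, 10.26 and 10.48 over the WT PDE10i arrays, and 9.97, 10.51 and 12.55 over the WT Veh arrays. Within KO PDE10i, KO Veh and WT Veh every striatal array was below every hippocampal array, and within WT PDE10i the regions overlapped. The striatal signal was 0.412 of the hippocampal signal over all groups (log2 difference −1.28 ± 0.15 SE, limma adjusted p = 1.14e-09). By condition the difference was −1.52 in KO PDE10i, −1.28 in KO Veh, −0.73 in WT PDE10i and −1.59 in WT Veh, and all 4 passed. The pass in WT PDE10i (adjusted p = 0.0337) was lost in 7 of the fits that left out 1 array (adjusted p up to 0.0776), without the arrays whose chromosome 17 score opposed the label (−0.57, adjusted p = 0.285), and without the array of highest Gapdh 3′ to 5′ difference in each group, a measure of RNA quality (−0.65, adjusted p = 0.119). Without the 3 hippocampal arrays with high Gabra6 it was −1.22 over all groups and −1.26 in WT Veh.

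The Gfap promoter window is shown because Gfap carries the largest regional difference and is known to respond to STAT signalling in astrocytes. It covers 250 bases before and 50 bases after the RefSeq start, chr11:102897151-102897450 on the minus strand of GRCm38.p6, and its capitals mark a match to the STAT motif TTCNNNGAA, which 8.3% of 32851 promoter windows of this length hold on either strand.
Gfap promoter: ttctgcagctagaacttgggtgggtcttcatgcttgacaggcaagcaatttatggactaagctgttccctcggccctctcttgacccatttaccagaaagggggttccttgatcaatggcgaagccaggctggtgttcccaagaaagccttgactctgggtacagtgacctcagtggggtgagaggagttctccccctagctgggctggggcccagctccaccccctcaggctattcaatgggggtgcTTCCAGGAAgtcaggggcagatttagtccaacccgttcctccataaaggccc

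Aqp4 (chr18:15389394-15410982) encodes the water channel of astrocyte endfeet. Its log2 signal in striatum was 9.13, 8.71, 9.06 and 9.18 on the KO PDE10i arrays, 9.06, 9.49, 9.18, 8.91 and 8.86 on the KO Veh arrays, 8.90, 9.14 and 9.37 over the WT PDE10i arrays, and 9.66, 9.24, 8.77, 9.09 and 9.38 on the WT Veh arrays. In hippocampus it was 9.81, 9.91, 10.10, 10.02 and 9.81 on the KO PDE10i arrays, 9.98, 10.14, 9.83, 9.98 and 10.19 on the KO Veh arrays, 9.46, 9.79 and 10.06 over the WT PDE10i arrays, and 9.68, 9.87 and 10.78 over the WT Veh arrays. In each of the 4 conditions every striatal array was below every hippocampal array. Aqp4 in striatum was at 0.568 of its hippocampal signal (log2 difference −0.82 ± 0.07 SE, limma adjusted p = 3.24e-12), and at −0.77 without the 3 arrays with high Gabra6. No promoter window of Aqp4 was used, so the motif counts below leave it out.

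The gap junction genes were both lower in striatum. Gjb6 (chr14:57123301-57133611), which encodes an astrocyte connexin, had log2 signals in striatum of 8.41, 7.90, 8.67 and 8.21 on the KO PDE10i arrays, 8.05, 8.52, 7.95, 8.02 and 8.21 on the KO Veh arrays, 7.64, 8.11 and 8.45 over the WT PDE10i arrays, and 8.70, 8.32, 8.05, 7.83 and 8.41 on the WT Veh arrays. Its hippocampal signals were 8.91, 9.15, 9.30, 9.40 and 8.81 on the KO PDE10i arrays, 8.996, 9.02, 8.71, 9.21 and 8.90 on the KO Veh arrays, 8.60, 8.94 and 9.16 over the WT PDE10i arrays, and 8.84, 8.94 and 9.15 over the WT Veh arrays. As for Aqp4, the regions did not overlap in any condition, and the difference was similar in size in all of them, −0.82 in KO PDE10i, −0.82 in KO Veh, −0.83 in WT PDE10i and −0.71 in WT Veh. Over all groups Gjb6 in striatum stood at 0.577 of its hippocampal signal (log2 difference −0.79 ± 0.07 SE, limma adjusted p = 2.71e-12). Gja1 (chr10:56377300-56390419), the other main astrocyte connexin, differed by −0.32 ± 0.05 (0.803 of the hippocampal signal, adjusted p = 2.68e-07), with its 6 probe sets between −0.90 and −0.15. It did not pass in WT Veh alone (−0.16, adjusted p = 0.179), nor in KO PDE10i without striatal array 34 or 39 (adjusted p up to 0.0654). Its striatal arrays ran from 11.21 to 11.99 and its hippocampal arrays from 11.72 to 12.21, so they overlapped.

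The Gjb6 promoter window (chr14:57133562-57133861, minus strand, GRCm38.p6) is printed beside that of Gfap because both genes were lower in striatum in every condition. It held no match to any of the 4 motifs searched on either strand, and therefore has no capitals.
Gjb6 promoter: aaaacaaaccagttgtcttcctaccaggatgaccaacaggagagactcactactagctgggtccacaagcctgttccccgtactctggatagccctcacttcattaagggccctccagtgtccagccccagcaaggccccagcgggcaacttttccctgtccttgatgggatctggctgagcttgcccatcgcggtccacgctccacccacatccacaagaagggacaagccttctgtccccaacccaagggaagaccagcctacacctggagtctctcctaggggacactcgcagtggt

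The glutamate transporters were lower in striatum by small amounts. Slc1a3 (chr15:8634124-8710807), the astrocyte glutamate transporter also called GLAST, ran from 9.66 to 10.45 over the striatal arrays and from 10.12 to 10.63 over the hippocampal arrays. Its difference was −0.31 ± 0.06 SE (0.809 of the hippocampal signal, limma adjusted p = 1.38e-05). Taken alone it did not pass in KO PDE10i (−0.23, adjusted p = 0.175) or WT Veh (−0.15, adjusted p = 0.320), nor in KO Veh without the arrays of opposing score (−0.26, adjusted p = 0.163). Slc1a2 (chr2:102658239-102790784), the main forebrain glutamate transporter, ran from 13.09 to 13.32 in striatum and from 13.10 to 13.46 in hippocampus, a difference of −0.12 ± 0.02 (0.919 of the hippocampal signal, adjusted p = 2.29e-05). It passed over all groups because its arrays varied little, and in KO PDE10i and WT Veh taken alone its adjusted p was 0.367 and 0.324. In KO Veh it missed the threshold without the arrays of opposing score (−0.12, adjusted p = 0.191).

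The metabolic genes differed little or not at all by the probe set that represents each. Aldoc (chr11:78323073-78327781), a glycolytic aldolase, ran from 12.78 to 13.21 in striatum and from 13.16 to 13.43 in hippocampus, a difference of −0.22 ± 0.03 SE (0.860 of the hippocampal signal, limma adjusted p = 3.69e-08). In WT Veh alone Aldoc narrowly missed the threshold (−0.14, limma adjusted p = 0.0547) and passed in 7 of the fits that left out 1 array. The second Aldoc probe set gave −0.55 over all groups. Aldh1l1 (chr6:90550768-90599171), a folate enzyme much used as a pan-astrocyte marker, ran from 8.44 to 9.07 in striatum and from 8.53 to 9.37 in hippocampus. Its difference of −0.05 ± 0.05 did not pass (adjusted p = 0.422), and the 95% interval was −0.14 to 0.05.

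Slc4a4 and S100b were higher in striatum. Slc4a4 (chr5:88793858-89239656), which encodes a sodium bicarbonate cotransporter that regulates pH, had log2 signals in striatum of 10.14, 10.25, 10.48 and 10.18 on the KO PDE10i arrays, 10.86, 10.44, 10.37, 10.13 and 10.35 on the KO Veh arrays, 10.41, 10.73 and 11.02 over the WT PDE10i arrays, and 10.62, 10.66, 10.72, 10.56 and 10.57 on the WT Veh arrays. In hippocampus it was at 10.12, 10.23, 10.20, 10.33 and 10.10 on the KO PDE10i arrays, 10.03, 10.15, 9.94, 10.13 and 10.19 on the KO Veh arrays, 9.81, 10.05 and 10.21 over the WT PDE10i arrays, and 9.97, 10.17 and 10.36 over the WT Veh arrays. The regions were apart in both WT conditions and overlapped in both KO conditions. Slc4a4 in striatum was 1.31 times its hippocampal signal (log2 difference 0.38 ± 0.05 SE, limma adjusted p = 5.21e-08). By condition the difference was 0.07 in KO PDE10i (adjusted p = 0.712), 0.34 in KO Veh, 0.67 in WT PDE10i and 0.45 in WT Veh, the last 3 passing. In KO Veh it no longer passed without striatal array 25 (adjusted p = 0.0905) or without the arrays of opposing score (0.24, adjusted p = 0.101). With the mean of the 5 Slc4a4 probe sets the difference in KO PDE10i was 0.51 and passed (adjusted p = 0.00744), so its size there depends on the probe set read.

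S100b (chr10:76253836-76261319), a calcium-binding protein, had log2 signals in striatum of 10.21, 10.30, 10.27 and 10.26 on the KO PDE10i arrays, 10.14, 10.36, 10.31, 10.31 and 10.02 on the KO Veh arrays, 9.91, 10.41 and 10.62 over the WT PDE10i arrays, and 10.34, 10.10, 10.08, 10.36 and 10.65 on the WT Veh arrays. In hippocampus they were 10.05, 10.04, 9.86, 9.88 and 9.91 on the KO PDE10i arrays, 10.05, 9.94, 9.95, 9.96 and 9.99 on the KO Veh arrays, 9.75, 9.87 and 10.15 over the WT PDE10i arrays, and 9.74, 10.03 and 10.33 over the WT Veh arrays. Only the KO PDE10i arrays of the 2 regions did not overlap for S100b. The striatal signal was 1.25 times the hippocampal one (log2 difference 0.32 ± 0.05 SE, limma adjusted p = 1.14e-06), and by condition it passed in all but KO Veh (0.25, adjusted p = 0.0699). These passes depended on the arrays used. In KO PDE10i S100b missed the threshold in 6 of the fits that left out 1 array, without the 3 arrays with high Gabra6 (0.29, adjusted p = 0.0564) and without the arrays of highest Gapdh difference (0.32, adjusted p = 0.107). In WT Veh it missed it in 4 fits that left out 1 array (adjusted p up to 0.129), without the arrays of highest Gapdh difference (0.26, adjusted p = 0.113) and when the 2 groups were fitted alone (adjusted p = 0.0849). The 9 oligodendrocyte markers measured were all higher in striatum as well, with a mean log2 signal of 10.47 to 11.16 over the striatal arrays and 9.73 to 10.71 over the hippocampal arrays, and their part in the S100b result was not tested.

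The promoter windows of the 2 genes that were higher in striatum are shown to set against those above. S100b lies at chr10:76253586-76253885 and 2 windows inside the Slc4a4 locus were matched, at chr5:88887010-88887309 and chr5:89027716-89028015, all on the plus strand of GRCm38.p6. The 5′ end of the Slc4a4 locus lies before both windows and is not shown. Capitals mark TTGGC or its reverse complement GCCAA, the core bound by nuclear factor I proteins, which 46.7% of 32851 promoter windows hold.
S100b promoter: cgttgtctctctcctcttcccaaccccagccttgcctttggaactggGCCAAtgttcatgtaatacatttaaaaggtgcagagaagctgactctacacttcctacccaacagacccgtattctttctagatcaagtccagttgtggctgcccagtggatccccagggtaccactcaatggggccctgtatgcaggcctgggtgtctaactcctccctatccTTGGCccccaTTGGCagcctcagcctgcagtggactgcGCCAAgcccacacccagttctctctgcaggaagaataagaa
Slc4a4 promoter, first window: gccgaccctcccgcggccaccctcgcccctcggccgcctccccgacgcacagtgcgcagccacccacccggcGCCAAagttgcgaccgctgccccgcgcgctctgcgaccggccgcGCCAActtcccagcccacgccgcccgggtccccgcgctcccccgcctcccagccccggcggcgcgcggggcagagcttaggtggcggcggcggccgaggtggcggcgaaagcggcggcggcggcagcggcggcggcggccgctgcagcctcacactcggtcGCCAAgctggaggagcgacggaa
Slc4a4 promoter, second window: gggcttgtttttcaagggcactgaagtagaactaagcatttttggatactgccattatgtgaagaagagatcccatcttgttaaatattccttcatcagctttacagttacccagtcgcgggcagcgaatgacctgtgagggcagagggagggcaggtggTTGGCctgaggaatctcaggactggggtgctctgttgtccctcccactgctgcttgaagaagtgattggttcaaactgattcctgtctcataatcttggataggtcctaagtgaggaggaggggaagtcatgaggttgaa
RefSeq promoter windows of 9 of the 10 members were searched, with 11 windows in all. The remaining member was left out of the search, so the counts that follow do not cover it. The nuclear factor I core was in 4 of these 9 genes (Slc1a2, S100b, Aldoc and Slc4a4), on both sides of the regional difference. The STAT motif was in 3 (Gfap, Slc1a3 and Aldoc), and the core of the cyclic AMP response element, TGACG or CGTCA, was in 2 (Slc1a3 and Gja1), beside 20.8% of all windows. The full element TGACGTCA, which overlaps that core and is in 1.79% of windows, was in none. The shares given count single windows rather than genes. By window the nuclear factor I core was in 5 of 11, the STAT motif in 3 and the core of the cyclic AMP response element in 2.

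Striatum differed from hippocampus in 6 of 10 members in KO PDE10i (26.1% of all genes), 8 in KO Veh (27.3%), 9 in WT PDE10i (35.6%) and 5 in WT Veh (33.9%). Without the arrays whose chromosome 17 score opposed the label, KO Veh gave 5 members. The counts also depend on how probe sets are read: with the mean of a gene's probe sets WT Veh gave 8 members, and when any probe set of a gene counted the conditions gave 9 in KO PDE10i, 8 in KO Veh, 10 in WT PDE10i and 9 in WT Veh. Shares of all genes under these readings are not given here, so these counts have no background beside them. Members also have more probe sets per gene, 35 for 10 genes, than all genes, 34945 for 18193. Aqp4 and Gjb6 passed in all 4 conditions, lower in striatum. Gfap did too, with the losses in WT PDE10i given above. Arrays of the 2 regions did not overlap for 5 members in KO PDE10i (22.7% of all genes), 6 in KO Veh (19.7%), 5 in WT PDE10i (20.1%) and 4 in WT Veh (21.2%). Across all 20 striatal and 22 hippocampal arrays no member was free of overlap, beside 7.07% of all genes.

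**Figure D2:**
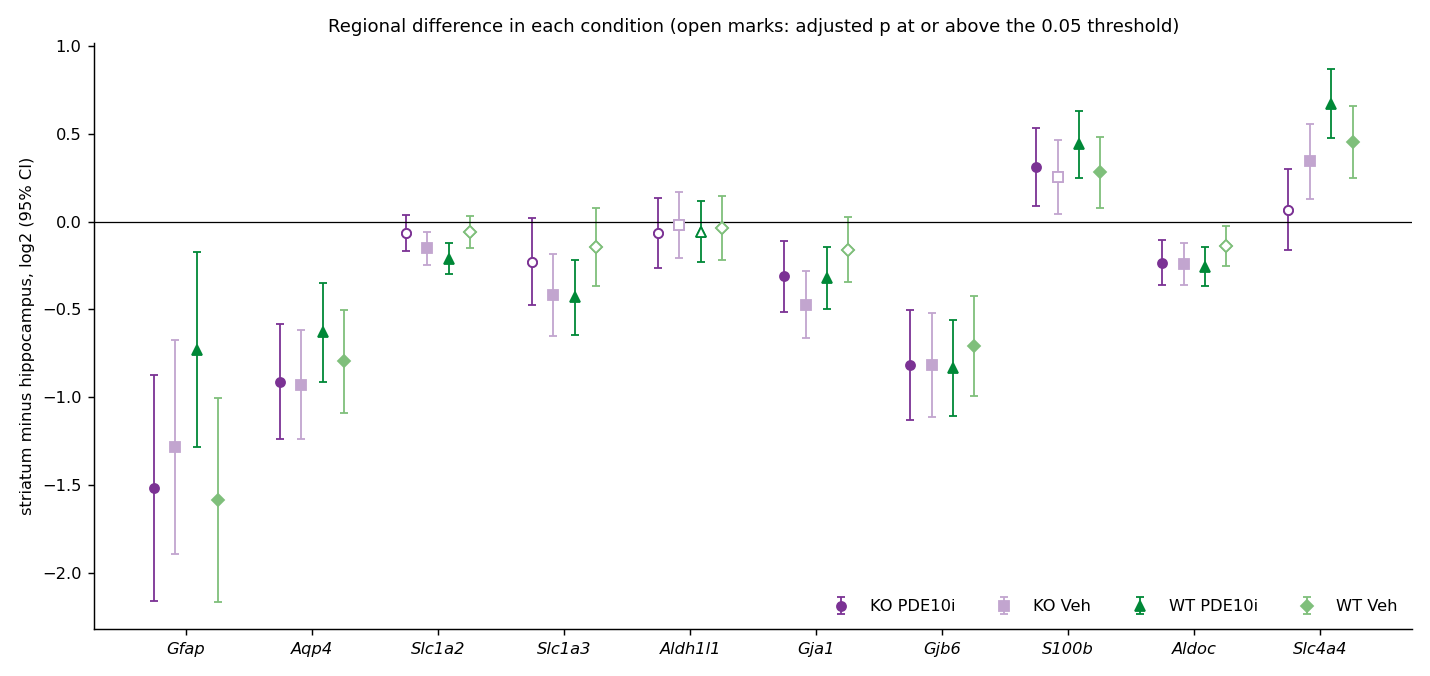
Striatum minus hippocampus log2 difference for each astrocyte gene in each of the 4 conditions, with 95% intervals; marks below 0 are lower in striatum, and open marks did not pass. Gfap, Aqp4 and Gjb6 lie below 0 in every condition, Slc4a4 lies between 0.07 and 0.67, and Aldh1l1 crosses 0 throughout.

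The separate probe sets of a gene, tested with adjustment over 34945 probe sets, mostly moved together. All probe sets were lower in striatum and passed for Gfap (3, from −1.59 to −1.28), Aqp4 (3, −0.92 to −0.82), Slc1a3 (6, −0.74 to −0.21), Gja1 (6, −0.90 to −0.15) and Aldoc (2, −0.55 and −0.22), and all were higher and passed for S100b (2, 0.32 and 0.34) and Slc4a4 (5, 0.18 to 1.98). The 5 Slc4a4 probe sets differed widely, with 0.18, 0.38, 0.52, 0.96 and 1.98, and the last of these had a mean log2 signal of 8.36 in striatum and 6.33 in hippocampus. The probe set at 0.18 was dim, with a mean log2 signal of 4.09 over all arrays. Slc1a2 was divided, with 3 of 5 probe sets lower, 1 at 0.24 (adjusted p = 0.0624) and 1 at −0.02. For Aldh1l1, 1 of 2 probe sets passed, higher in striatum by 0.11, so its regional difference depends on the probe set read. That probe set was dim, with a mean log2 signal of 4.405 over all arrays, beside 8.78 for the one used. Which transcripts each probe set detects was not analysed here.

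**Figure D3:**
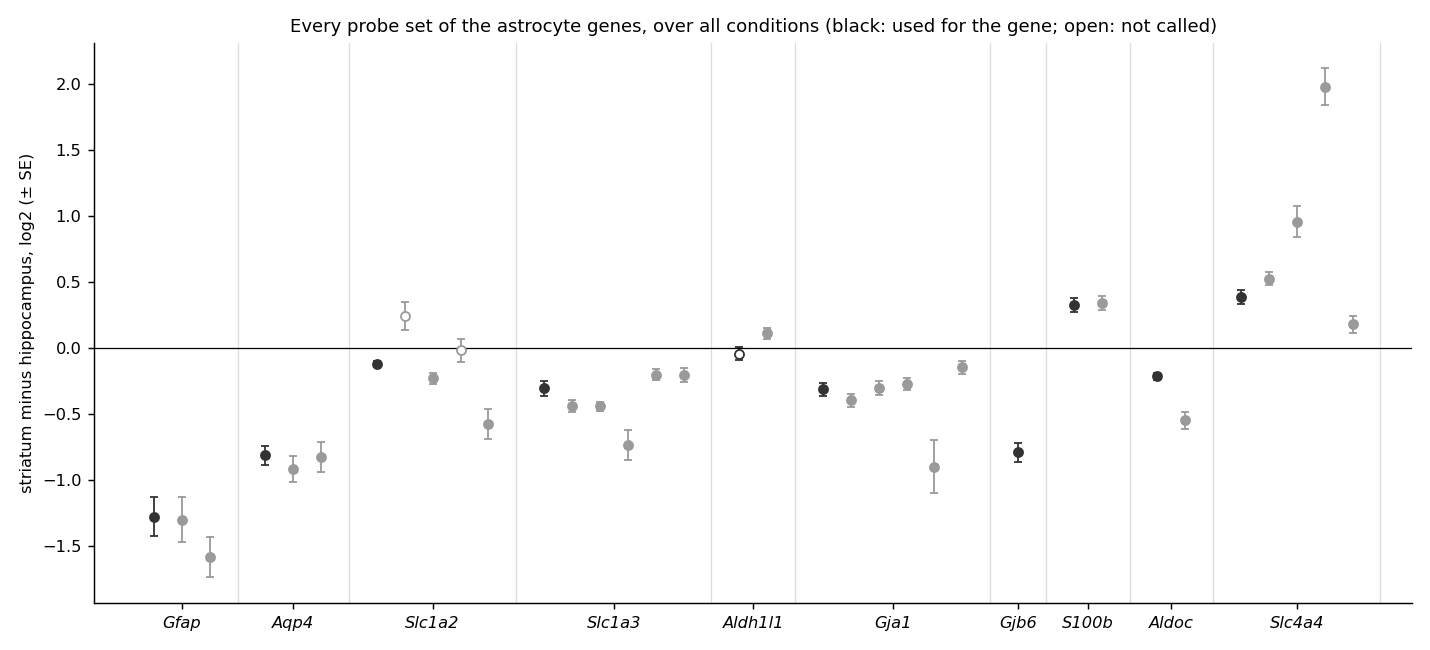
Striatum minus hippocampus log2 difference of each of the 35 probe sets over all groups, grouped by gene, with bars for the SE, black marks for the probe set that represents the gene and open marks for those that did not pass. The probe sets of Slc4a4 spread over 0.18 to 1.98, and those of Slc1a2 and Aldh1l1 lie on both sides of 0.

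Among other astrocyte genes the lists differed. In this comparison 27.2% of all genes were higher in striatum and 26.7% lower. Of 49 further astrocyte genes measured, 30 were lower and 7 higher (median −0.21), among them Gpc4, a secreted synapse-promoting glypican (−1.92), and Htra1, a secreted protease (−0.35). Of 18 transcription factors and progenitor genes of the lineage, 11 were lower and 4 higher (median −0.30), including the nuclear factor I genes Nfix (−1.31) and Nfib (−1.46). Of 25 genes associated with reactive astrocytes, 9 were lower and 2 higher (median −0.04), so fewer of them passed than the 53.9% of all genes; the lower ones were led by Ptgs2, a prostaglandin synthase that neurons also make (−2.65), and Serpina3n (−2.14). Of 12 connexin and gap junction genes, which include Gja1 and Gjb6, 5 were lower and 4 higher. Gjb1, a connexin of oligodendrocytes, was among the higher ones (0.68). Of 16 glutamate and GABA transporters, which include Slc1a2 and Slc1a3, 12 were lower; Slc32a1, the vesicular GABA transporter, was the only one higher (1.77). Markers of other cells differed too, with 8 of 8 glutamatergic neuron markers lower (median −1.98), 8 of 8 striatal projection neuron markers higher (4.31), and 8 of 10 microglial and 8 of 10 vascular markers higher. Their part in the astrocyte gene differences was not tested.

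The inhibitor and the knockout were compared to learn whether loss or block of PDE10A shifts these genes. None of the 10 astrocyte genes passed in any of the 10 comparisons of inhibitor or genotype within a region. In striatum, 0 of 10 passed for PDE10i against Veh in WT (0.181% of all genes), KO against WT in Veh (0.137%), PDE10i against Veh in KO (0%), KO against WT under inhibitor (0%) and the dependence of the inhibitor effect on genotype (0%). In hippocampus 0 of 10 passed in the same comparisons, where all genes gave 0%, 0%, 0%, 0.00550% and 0%. At an unadjusted limma p under 0.05 there were 2, 2, 0, 1 and 1 members in striatum, beside 9.57%, 5.94%, 1.41%, 12.2% and 7.40% of all genes, and 1, 1, 0, 0 and 1 in hippocampus, beside 10.7%, 6.62%, 3.82%, 15.6% and 11.8%. The 35 probe sets taken singly gave 0 passes in all 10 comparisons as well.

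**Figure D4:**
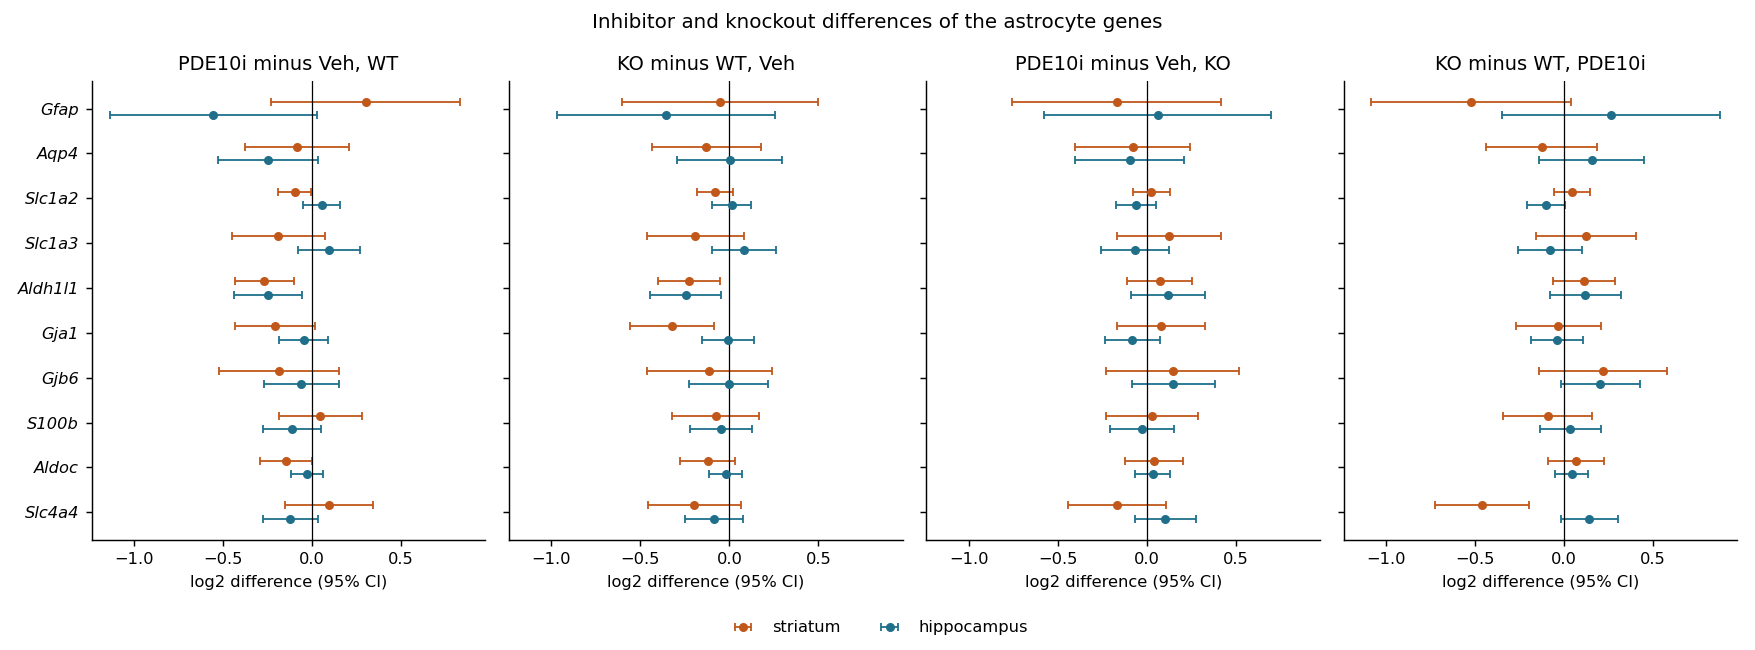
Log2 differences with 95% intervals for the 10 astrocyte genes in the 4 comparisons of 2 groups, striatum above hippocampus for each gene. No interval corresponds to an adjusted p under 0.05, the intervals of Gfap are the widest, and Slc4a4 in KO against WT striatum under inhibitor (−0.46) lies farthest from 0 relative to its error.

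In WT striatum the inhibitor was accompanied by lower values of 7 of 10 members, with a median of −0.12 beside 0.00 over all genes, none of which passed. Aldh1l1 came nearest, with 8.44, 8.67 and 8.77 (lowest, median, highest) over the WT PDE10i arrays, against 9.07, 8.84, 8.94, 8.77 and 8.96 on the WT Veh arrays. The treated arrays were all lower, as for 0.363% of all genes, and the difference was −0.27 ± 0.08 SE (limma adjusted p = 0.217). Its second probe set, with a mean log2 signal of 4.405 over all arrays, gave −0.08. Slc1a2 was at 13.09 to 13.22 over the WT PDE10i arrays, against 13.29, 13.25, 13.21, 13.32 and 13.26 on the WT Veh arrays, a difference of −0.10 ± 0.05 (adjusted p = 0.511). Gfap was at 9.48 ± 0.27 in WT PDE10i and 9.17 ± 0.59 in WT Veh (SD, n = 6 and 5), a difference of 0.30 ± 0.25 SE (limma adjusted p = 0.811). Beside these values, glutamatergic neuron markers averaged 6.63 to 8.36 over the WT PDE10i arrays and 6.78 to 9.04 over the WT Veh arrays, and vascular markers averaged 7.97 to 8.51 over the WT PDE10i arrays and 7.78 to 8.02 over the WT Veh arrays. With the glutamatergic mean as a covariate the difference was −0.25 for Aldh1l1, −0.09 for Slc1a2 and 0.04 for Gfap, and none of the 10 members passed. The part of the vascular markers was not tested.

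In vehicle striatum all 10 members were lower in KO than in WT, with a median of −0.13 beside 50.6% of all genes lower, and none passed. Without the arrays with high Pcp2, Gfap was instead 0.096 higher in KO, and the other members stayed lower. Leaving out 1 array changed the sign of Gfap in 5 fits and that of S100b in 1. With all arrays, lists of other cells were lower in KO as well without passing, with 9 of 9 oligodendrocyte, 7 of 7 oligodendrocyte precursor and 10 of 10 ependymal markers lower (medians −0.07, −0.11 and −0.23). Their part in the astrocyte gene values was not tested. Gja1 was at 11.26, 11.59, 11.56, 11.67 and 11.30 on the KO Veh arrays, against 11.98, 11.61, 11.68, 11.99 and 11.74 on the WT Veh arrays. The groups overlapped, and the difference was −0.32 ± 0.11 SE (limma adjusted p = 0.505). Aldh1l1 was at 8.56, 8.85, 8.69, 8.63 and 8.72 on the KO Veh arrays, a difference of −0.23 ± 0.08 from the WT Veh arrays above (adjusted p = 0.570). This comparison shares its WT Veh arrays with the inhibitor comparison in WT, so values of the WT Veh arrays enter both. In KO striatum the inhibitor differences ran from −0.17 to 0.15, with a median of 0.04.

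Slc4a4 had the smallest adjusted p of the members in the inhibitor and genotype comparisons, in KO against WT striatum under inhibitor. The 4 KO PDE10i arrays read 10.14, 10.25, 10.48 and 10.18, against 10.85, 10.96, 11.02, 10.41, 10.48 and 10.61 on the WT PDE10i arrays. All but 1 of the KO arrays were below every WT array, and the difference was −0.46 ± 0.13 SE (limma adjusted p = 0.183). It passed in 3 refits: with array weights (−0.49, adjusted p = 0.0194), without the arrays whose chromosome 17 score opposed the label (−0.68, adjusted p = 0.000258), and without the arrays of highest Gapdh difference (−0.52, adjusted p = 0.0466). The second of these refits left out WT PDE10i 13, 14 and 15, which held the 3 lowest WT values of Slc4a4. It therefore set 4 KO arrays against 3 WT arrays. With the glutamatergic mean as a covariate Slc4a4 did not pass. Glutamatergic neuron markers averaged 7.10 to 9.62 over the striatal KO PDE10i arrays and 6.63 to 8.36 over the WT PDE10i arrays. Vascular markers averaged 7.93 to 8.06 and 7.97 to 8.51 over the same groups. The part of the vascular markers in this difference was not tested. The 5 Slc4a4 probe sets gave −0.46, −0.54, −0.68, −0.86 and 0.01, and none of them passed among all probe sets. The one at 0.01 had a mean log2 signal of only 4.09 over all arrays. In hippocampus the same comparison gave 0.14 ± 0.08 (adjusted p = 0.379), and the difference between the regions' effects was −0.60 ± 0.15 (adjusted p = 0.066). Gfap in the same striatal comparison was at 8.95 ± 0.31 in KO PDE10i and 9.48 ± 0.27 in WT PDE10i (SD, n = 4 and 6), a difference of −0.52 ± 0.27 SE (limma adjusted p = 0.456).

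In WT hippocampus, Gfap and Aldh1l1 were lower with the inhibitor, without passing. Gfap was at 9.69, 10.26 and 10.48 over the WT PDE10i arrays, against 9.97, 10.51 and 12.55 over the WT Veh arrays, a difference of −0.55 ± 0.28 SE (limma adjusted p = 0.483). Leaving out single arrays moved it between −0.71 and −0.20, and it was −0.23 without the arrays with high Gabra6, among which is the WT Veh array at 12.55, and −0.38 without the arrays with high Pcp2. Aldh1l1 was at 8.56, 8.64 and 9.04 over the WT PDE10i arrays, against 8.76, 8.87 and 9.37 over the WT Veh arrays, a difference of −0.25 ± 0.09 (adjusted p = 0.386), and −0.11 without the arrays with high Gabra6. KO against WT in vehicle hippocampus gave the same size for Aldh1l1, −0.25 ± 0.10 (adjusted p = 0.662), again −0.11 without those arrays, and shares the WT Veh arrays.

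The 95% interval of the inhibitor or genotype difference lay within 0.5 log2 either side of 0 for 8, 8, 8 and 7 of 10 members in the 4 striatal comparisons of 2 groups, and for 8, 9, 9 and 9 in the hippocampal ones. Gfap had the widest intervals, reaching −0.23 to 0.83 for the inhibitor in WT striatum. Of the other astrocyte lists, none of the 49 further astrocyte genes, 18 transcription factors, 25 reactive genes, 12 connexin genes and 16 transporters passed in any of these comparisons.

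The astrocyte genes varied between arrays of the same group by very different amounts. The within-group SD of Gfap was 0.465 in striatum and 0.531 in hippocampus, larger than for 98% and 99.3% of all genes. Slc1a2 was at the other end, with 0.0435 and 0.0802, larger than for 0.055% and 15.8% of genes. These are spreads of the probe set that represents each gene, which for Slc1a2 and Aldoc was at percentile 99.9 of signal among probe sets. Over all arrays that of Slc1a2 ran from 13.09 to 13.46, and its next brightest probe set from 7.73 to 9.79. Aqp4 had 0.250 and 0.252, Gjb6 0.291 and 0.189, and Aldoc 0.110 and 0.0647. Correlations of deviations from the group mean over the 45 pairs of members had a median of 0.187 in striatum (20 arrays, −0.73 to 0.842) and 0.245 in hippocampus (22 arrays, −0.61 to 0.86), and 0.193 in hippocampus without WT Veh 1. These are descriptions of values that share arrays and their normalization.

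**Figure D5:**
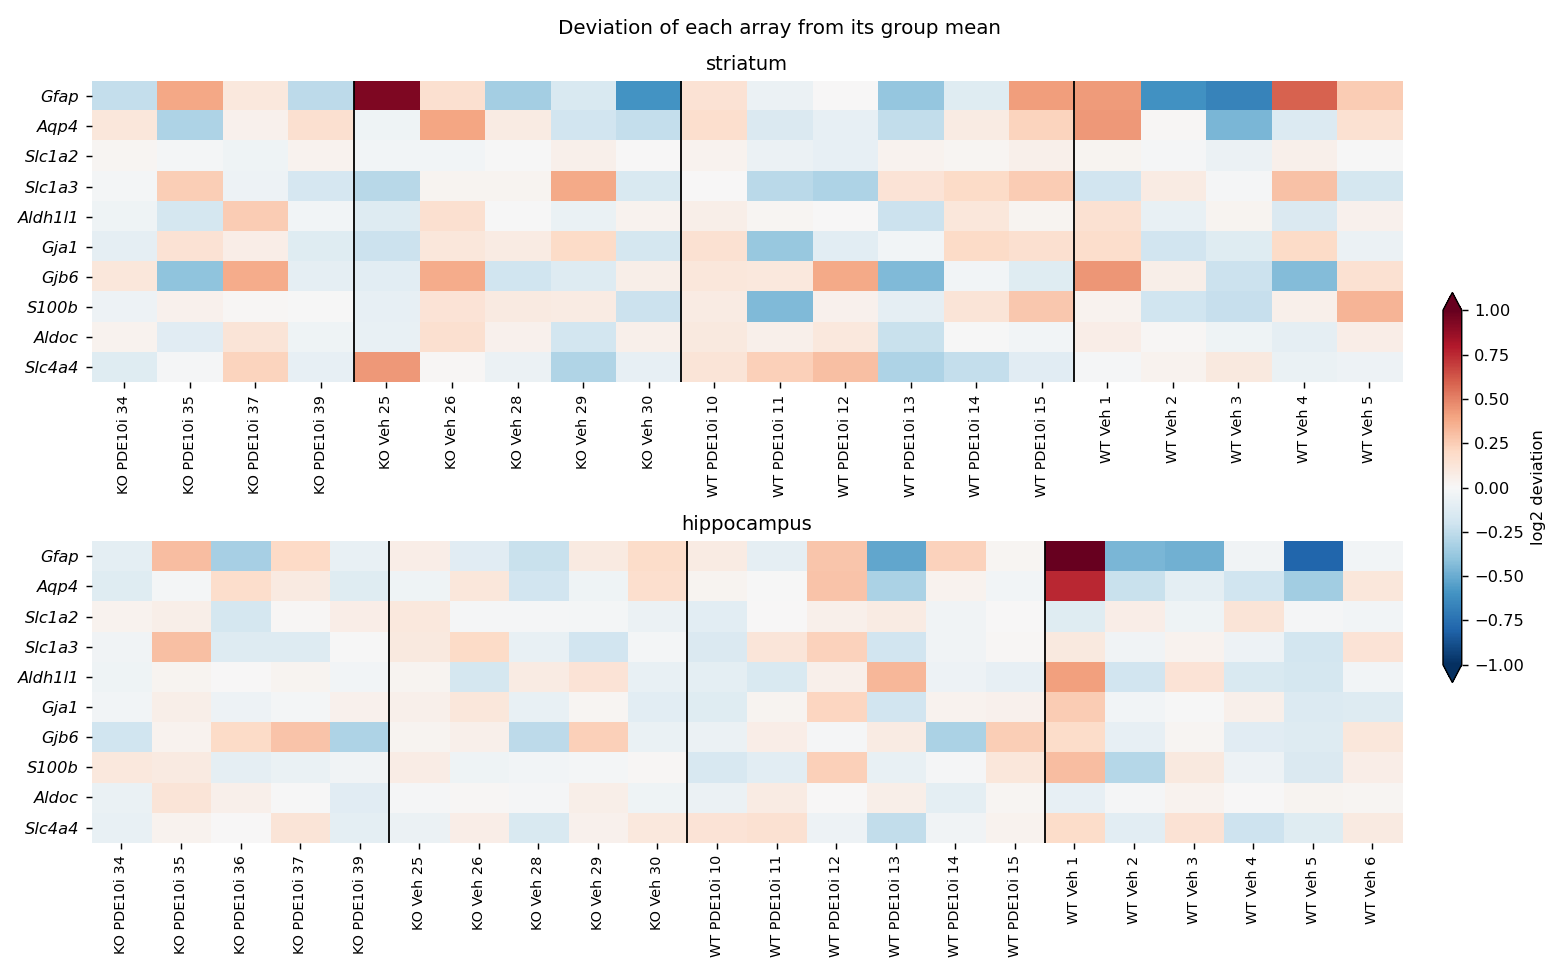
Deviation of each astrocyte gene from its group mean on each array, in log2 units with the colour limited to 1 either side of 0, arrays grouped by region and group. Gfap shows the strongest colours, Slc1a2 and Aldoc the weakest, and WT hippocampus Veh 1 is high for Gfap and Aqp4.

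The genes whose array-to-array deviations were most like the members' mean were named by the 5 highest correlations. In striatum, over 20 arrays, they were Lrrn1 (r = 0.895), Gstm7 (0.885), Slco3a1 (0.875), Scd1 (0.870) and Tmem229a (0.859). In hippocampus, over 22 arrays, they were Vim (0.923), Gpnmb (0.889), Csdc2 (0.868), Plat (0.865) and Olfml3 (0.859). The hippocampal list rests on WT Veh 1: without that array these 5 genes had r between 0.605 and 0.778, and the 5 highest were Rhbg (0.831), Hmgn1 (0.826), Pros1 (0.816), Sod1 (0.795) and Rpl37 (0.792), with 0 genes shared. Over the 8 group means they were Coq8a, Ddo, Prxl2a, Htra1 and Nfatc2ip, with r between 0.991 and 0.995. No gene is on more than 1 of these lists, and they are highest values among all genes, given without a test.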

How the data were processed

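The deposited values are log2 signals of 45101 probe sets on 42 arrays, which the authors computed by RMA, per the submitters' processing notes. The method corrects background, normalizes quantiles across arrays and summarises probes, so differences in total RNA are removed; the version and whether all arrays were run together were not stated in the sources used. Array medians were 6.05 to 6.12. After 64 control probe sets were removed, 34945 probe sets had 1 gene, 932 had several and 9160 had none listed; 34741 matched the RefSeq gene table of GRCm38.p6 by identifier, and 204 kept the annotation's symbol. Each gene was read by its probe set of highest mean, giving 18193 genes. The number of arrays limits the precision.

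Groups came from the sample titles. limma 3.58.1 in R 4.3.3 (lmFit, eBayes) was fitted to 20 striatal arrays, to 22 hippocampal arrays and, for regions, to all 42, with adjustment over 18193 genes in each of 15 comparisons; the fits were tested on simulated data. The members and gene lists were chosen with earlier results of these data known. Of 225 list entries, 211 were matched. Named genes were all members, up to 3 genes per list with the smallest p among those that passed, and 5 genes with the most alike pattern. The chromosome 17 score used 15 genes chosen in the other region, with 0.5 as the midpoint. Numbers in the titles were not taken to pair striatum with hippocampus: of 20 pairs, 6 had a correlation of deviations over 0.1. Alternatives were other probe sets, array weights, arrays left out and covariates.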

Additional observations from a re-analysis of the deposited data

Results flagged for a closer look

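Of 80 sets of values, 1 per member and group, 3 had an array far from the rest of its group, where about 4 would be expected at 1 in 20. Gfap was at 12.55 on WT hippocampus Veh 1, with the next array at 10.73 and the lowest at 9.97. On the same array 7 of 10 members were the highest of the 6 arrays, beside 22.1% of all genes. Aqp4 was at 10.78 there, and Aldh1l1 at 9.37. Slc1a2 and Aldoc were the lowest of the 6, both near 13.20. Gabra6 was at 9.95.

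Slc1a2 was at 13.1 on KO hippocampus PDE10i 36, with the next array at 13.29 and the highest at 13.34, and Gabra6 was at 8.35 on that array. Aldh1l1 was at 8.436 on WT striatum PDE10i 13, with the next array at 8.651 and the highest at 8.766. The chromosome 17 score of that array, 0.589, opposed its label.

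Of 50 inhibitor and genotype effects compared between striatum and hippocampus, 5 for each member, 0 differed after adjustment. Few genes of any kind did so. Of all 18193 genes, 39 differed for PDE10i against Veh in WT and 9 for KO against WT in Veh. None differed for PDE10i against Veh in KO, KO against WT under inhibitor or the dependence on genotype.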

How the results depend on the processing

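Counts of members that passed kept to within 1.5 times under most alternatives, and none of the differences that had passed changed sign. KO against WT striatum under inhibitor changed to 1 member (Slc4a4) with array weights, without the arrays whose chromosome 17 score opposed the label, and without the arrays of highest Gapdh difference. Striatum against hippocampus in WT Veh changed to 8 members with the mean of probe sets and 9 when any probe set counted, beside 5. Shares of all genes under these readings are not given. In KO Veh it changed to 5 without the arrays of opposing score, beside 8. With 1 array left out at a time, the 10 inhibitor and genotype comparisons gave 0 to 0 members, and striatum against hippocampus gave 4 to 6 in KO PDE10i, 7 to 9 in KO Veh, 8 to 9 in WT PDE10i, 4 to 6 in WT Veh and 9 to 9 over all groups. Without the 3 hippocampal arrays with high Gabra6, an alternative chosen after seeing the data, the regional counts in the same order were 5, 8, 9, 5 and 9, and they were the same without the 8 arrays with high Pcp2, chosen likewise. Gfap in WT PDE10i missed the threshold without the arrays of opposing score (adjusted p = 0.285) and without those of highest Gapdh difference (0.119). The median correlation of member pairs in hippocampus changed to 0.193 without WT Veh 1, beside 0.245. With the title number as a replicate block on the 40 arrays that form pairs, S100b in KO PDE10i missed the threshold (0.29, adjusted p = 0.0663), but leaving out the unpaired KO hippocampus PDE10i 36 alone gave the same difference (adjusted p = 0.0695); the consensus correlation within numbers was 0.00403. Fits of the compared groups alone were not run for the genotype dependence or over all groups, where they equal the fits given, and the glutamatergic covariate was run only within regions.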

Other observations

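WT hippocampus Veh 1 stood above the other 5 WT Veh hippocampal arrays in some further glial lists and not in others. Of 25 genes associated with reactive astrocytes, 14 were highest on it, led by Timp1, a metalloprotease inhibitor, at 6.44 beside at most 4.57 on the others. Vim, an intermediate filament gene, was at 10.41 beside at most 9.03. Of the marker lists, 6 of 10 microglial, 9 of 9 choroid plexus, 6 of 10 ependymal and 0 of 9 oligodendrocyte genes were highest there, beside 22.1% of all genes. Of 49 further astrocyte genes, 22 were above and 13 below all the others, of 16 transporters 3 above and 8 below, and of 12 connexin genes 2 above and 4 below. Choroid plexus markers averaged 9.29 on WT hippocampus Veh 1. Their mean was higher on some arrays of other groups, up to 9.60 in KO hippocampus Veh, 9.49 in WT hippocampus PDE10i and 10.08 in KO striatum Veh. The largest excess of WT hippocampus Veh 1 over the other 5 arrays was that of Gabra6, at 9.95. The part of each in the Gfap value was not tested.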
